A study of Solanum lycopersicum with 12 samples.

Results

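Transcripts of wild-type tomato fruit were followed over 7 days of ripening, from the breaker stage, when a mature green fruit first turns colour, to 7 days after breaker. The members are the 6 wild-type libraries of a series of 12, 3 from breaker fruit and 3 from fruit 7 days later, taken by genotype and stage as the labels give them. Both groups are Solanum lycopersicum of the cultivar Ailsa Craig, from plants raised in a greenhouse with controlled light and temperature, and no treatment is named. The tissue is given only as fruits, so peel, pericarp, locular tissue and seed cannot be told apart in the sampling. The titles of the wild-type samples also carry the word slnor, while their genotype label reads WT, and the genotype label was followed. The other 6 libraries come from slnor, a CRISPR mutant of the NAC transcription factor gene NOR in the same background, sampled at the same stages. They enter where the wild-type change was compared with that of the mutant. They are also part of the single fit of all 12 libraries that gave the wild-type calls. Its low-count filter, scaling and estimate of spread rest on all 4 groups. Nothing in the labels says that replicates came from separate plants, so the p-values measure the spread between these libraries, which may be technical.

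Tomato is a climacteric fruit: at breaker it starts a burst of ethylene synthesis that drives the later steps of ripening. NAC and MADS-box transcription factors, among them NOR and RIN, act upstream of ethylene, and together they switch on the enzymes of lycopene formation, cell wall disassembly, flavour volatiles and sugar metabolism. Over the same days chloroplasts turn into chromoplasts, chlorophyll is lost and the bitter glycoalkaloids of green fruit are converted to other forms.

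The wild-type libraries held 50714230 to 57552548 counts at breaker and 55352592 to 66795632 counts 7 days later, over 20191 to 20684 detected genes. A single axis separated the stages: the first principal component of the 6 libraries held 76.93% of the variance of log2 expression, with the breaker libraries between −92.11 and −90.5 and the later ones between 89.81 and 93.3. A further component, with 6.38%, placed replicate 1 of each stage (27.63 and 44.23) apart from the other 4 libraries (−24.32 to −9.56). The biological coefficient of variation between replicates was 7.01% at breaker and 6.64% 7 days later. The sampled organ matched the fruit label, since fruit ripening genes were among the most abundant transcripts. Per length, E8, ASR1, E4, PSY1, TIV1 and PG2a were all among the 8 most abundant transcripts at breaker. Ranks 1 and 4 were held by Solyc07g049135.1 and Solyc10g085880.1, which are not among the genes listed below.

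Of 20070 genes tested, 6659 (33.2%) were higher 7 days after breaker and 6449 (32.1%) were lower, at an adjusted p under 0.05 in edgeR's quasi-likelihood test. Together 65.3% of the tested genes changed. RNA came from whole samples, so fewer cells of a type and less RNA per cell cannot be told apart in any of these changes. The median log2 fold change over all tested genes was 0.00. The sizes were unequal between the directions. At least 2-fold, 1406 genes (7.01%) rose and 2922 (14.6%) fell. At least 8-fold, 355 rose and 810 fell, and at least 64-fold, 131 rose and 227 fell. The median size of a change over all tested genes was 0.45 on the log2 scale, and the 90th percentile was 2.22. Expression is given as CPM (read counts scaled to library size with TMM factors), which may be compared between libraries for a gene but not between genes. In 69.4% of the genes the CPM values of the stages did not overlap. Listed genes named below for the size of their change were picked among those without overlap. Their lack of overlap was therefore set by that choice.

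The direction of change went with the mean CPM of a gene, which is not corrected for gene length. The median log2 fold change also went up with length. It was 0.02, 0.10 and 0.16 in groups of 2430 genes from shortest to longest, among genes with at least 1000 counts in every library. Among the 5351 genes with a mean of 1 to 10 CPM, 23.2% rose and 39.4% fell. Among the 8695 genes at 10 to 100 CPM the order was the other way, with 44.5% higher and 30.9% lower. Of the 2103 genes at 100 to 1000 CPM, 48.7% rose and 33.6% fell. At least 2-fold, falls still outnumbered rises in both of these ranges, with 651 against 382 and 144 against 103. Of the 86 genes above 1000 CPM, 41 rose and 38 fell. Low-count genes have wider errors, and 3835 genes under 1 CPM gave 481 higher and 907 lower. Between 23.9% and 24.2% of a library's counts fell on its 100 most abundant genes, and 69 of these were among the top 100 at both stages.

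**Figure D1:**
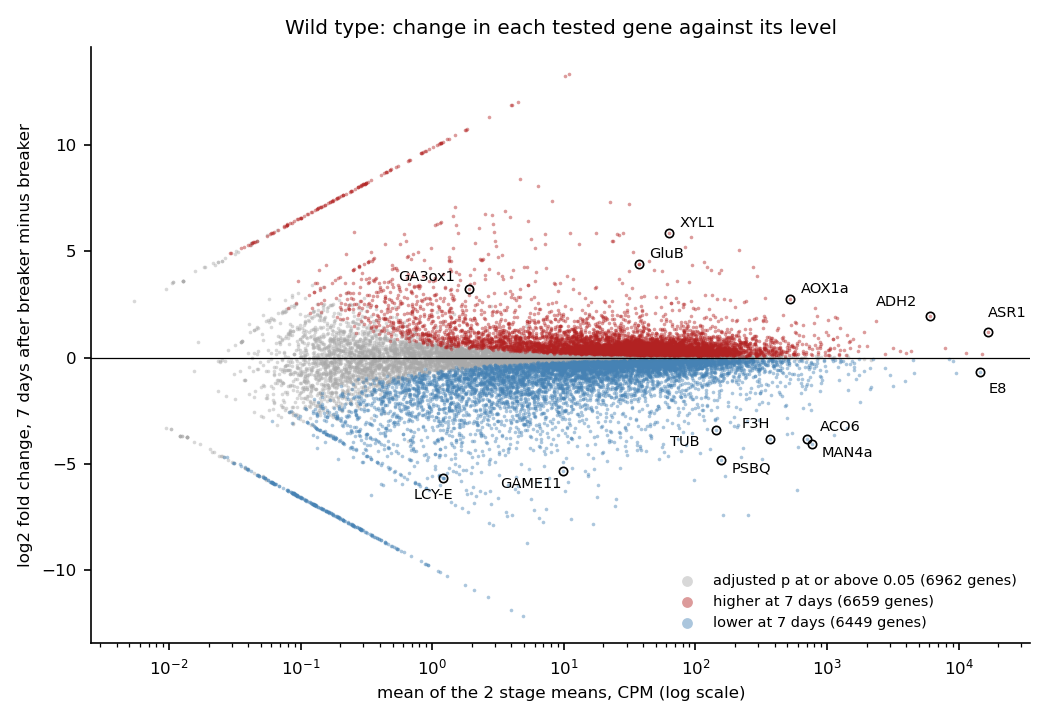
Each point is 1 of the 20070 tested genes in wild type, with the mean of the stage means in CPM on a log axis and the log2 fold change (7 days after breaker minus breaker) on the vertical axis; red genes rose, blue genes fell and grey genes did not pass. Falls of more than 2-fold outnumber rises (2922 against 1406), and the straight lines of points at left are genes with no count at a stage, whose fitted change depends on the prior count.

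Of the listed genes, ASR1 was the most abundant transcript per length at both stages. ASR1 (Solyc04g071610.4), an abscisic acid, stress and ripening protein, gave 10349, 9832 and 9696 CPM in the breaker libraries and 21687, 24103 and 24051 CPM 7 days later. It rose 2.34-fold (log2 fold change 1.22, SE 0.0468, adjusted p = 4.58e-13), and its lowest later library lay above its highest breaker library. Per length it went from 12742 ± 416 to 29500.4 ± 1745 FPKM (mean ± SD, n = 3), which made it the first-ranked transcript of all genes at 7 days. E8 (Solyc09g089580.4), a dioxygenase gene of the ethylene response and a classic ripening marker (under the symbol ACO3 in the reference gene table), stood at 18106, 17892 and 17979.8 CPM in the breaker libraries and 11382, 11085 and 11149 CPM 7 days later. It fell by 0.68 on the log2 scale (SE 0.0346, adjusted p = 1.91e-11) and per length stood at the third rank of all genes, at 5935 ± 82.3 FPKM against 9622 ± 42.3 at breaker. ADH2 (Solyc06g059740.4), an alcohol dehydrogenase that reduces flavour aldehydes, came up to 4958 ± 50.9 FPKM from 1307 ± 25.9, the fifth rank of all genes.

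Genes were read in 28 lists of ripening, hormone, metabolism and stress genes, 336 of whose members were tested. Of these 336, 102 rose and 181 fell, against 33.2% and 32.1% of all tested genes, and their median log2 fold change was −0.26 against 0.00 over all tested genes. The count of each list below is to be read beside the same shares. For changes of at least 2-fold the shares of all tested genes were 7.01% higher and 14.6% lower. Lists differed widely, from a median of −3.48 for glycoalkaloid genes to 2.24 for the 3 genes of alternative respiration.

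**Figure D2:**
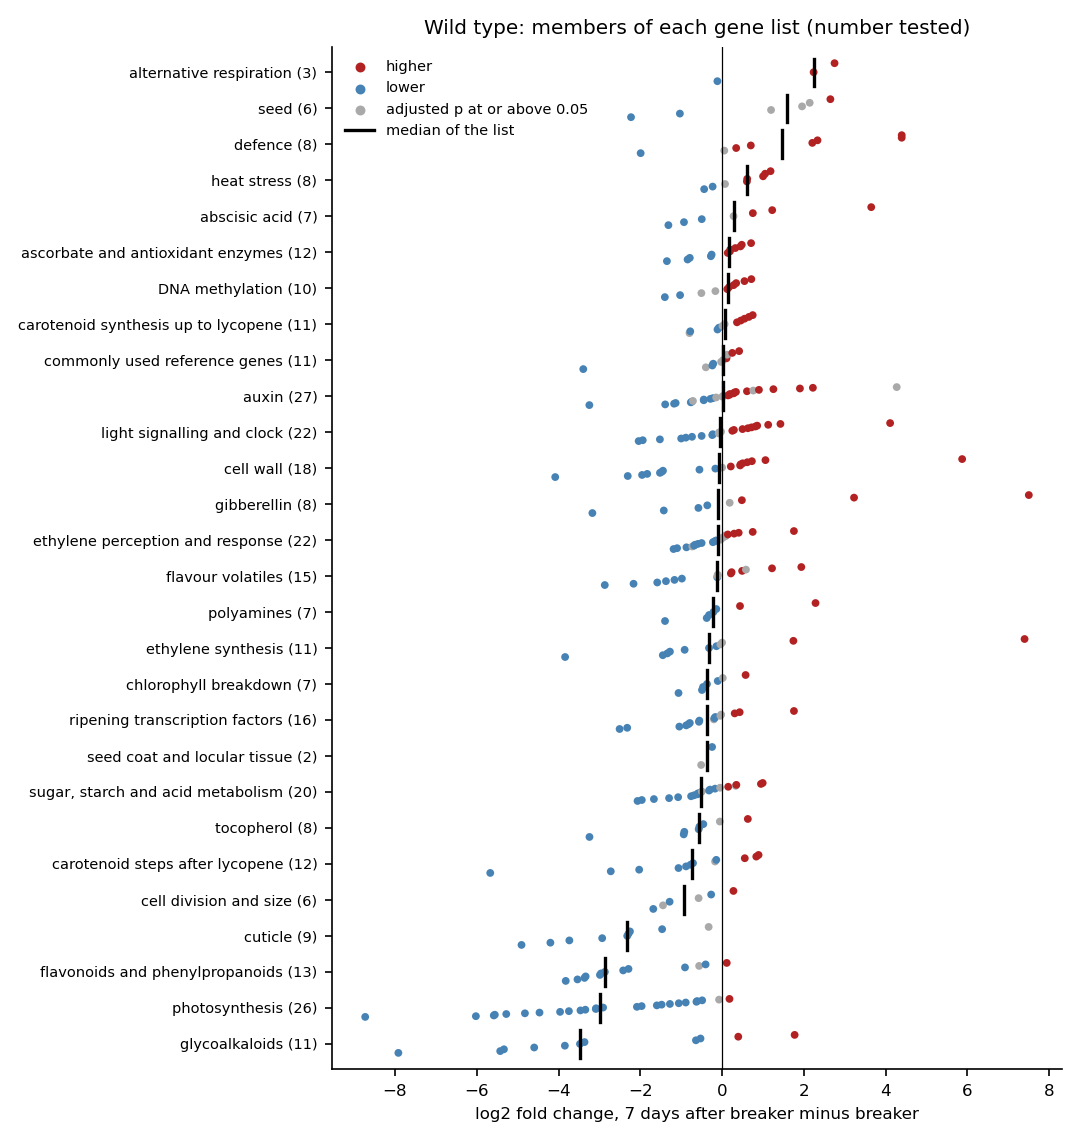
Log2 fold change (7 days after breaker minus breaker) of each tested member of the 28 gene lists in wild type, 1 row per list with the number tested, ordered by the list's median (black bar); red members rose, blue members fell and grey members did not pass. Photosynthesis, flavonoid, glycoalkaloid and cuticle genes lie almost wholly to the left of 0, at medians between −3.48 and −2.32.

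Transcription factors that act in ripening fell more often than they rose. Of 16 tested, 10 fell, 3 rose and 3 did not pass, with a median log2 fold change of −0.38. NOR (Solyc10g006880.3), the NAC factor mutated in slnor, gave 978, 969.5 and 955 CPM in the breaker libraries and 459, 479.8 and 467 CPM 7 days later. The later libraries were all below the earlier ones, by 1.05 on the log2 scale (SE 0.0487, adjusted p = 6.36e-12). RIN (Solyc05g012020.4), the MADS-box master regulator, moved the other way, with 654, 606 and 608 CPM in the breaker libraries and 844, 843 and 827 CPM 7 days later (log2 fold change 0.43, SE 0.0413, adjusted p = 8.46e-08). NAC1 (Solyc04g009440.3), another NAC factor, was low at both stages and rose 3.38-fold, with 6.08, 6.69 and 6.51 CPM in the breaker libraries and 18.9, 23.8 and 22.4 CPM 7 days later (SE 0.0918 on the log2 scale, adjusted p = 2.86e-11). GLK2 (Solyc10g008160.3), which sets chloroplast development in green fruit shoulders, fell 5.68-fold to near the detection limit, with 3.05, 1.72 and 2.04 CPM in the breaker libraries and 0.267, 0.568 and 0.348 CPM 7 days later (adjusted p = 3.69e-06).

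Ethylene synthesis runs from S-adenosylmethionine through ACC synthases (ACS) to ACC oxidases (ACO). Of 11 tested genes 2 rose, 7 fell and 2 did not pass (median log2 fold change −0.32). ACS4 (Solyc05g050010.3), an ACC synthase of the ripening burst, gave 159, 159.6 and 153 CPM in the breaker libraries and 525, 528 and 525 CPM 7 days later. That is a 3.35-fold rise with no overlap (SE 0.0353 on the log2 scale, adjusted p = 1.22e-16). ACS2 (Solyc01g095080.3), the other ripening ACC synthase, did not pass the test, with 869, 882 and 852 CPM in the breaker libraries and 837, 849 and 842 CPM 7 days later (log2 fold change −0.04, SE 0.0472, adjusted p = 0.461). ACS8 (Solyc03g043890.3) had no count at breaker and 63 counts 7 days later, at least 18.5-fold higher against a floor of 3 counts over the breaker group, though its level stayed at 0.352 ± 0.0454 CPM.

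The ACC oxidases fell. ACO6 (Solyc02g036350.3) dropped 14.3-fold, with 1329, 1311 and 1310.0 CPM in the breaker libraries and 88.2, 92.1 and 95.5 CPM 7 days later (log2 fold change −3.84, SE 0.0714, adjusted p = 4.14e-17). ACO1 (Solyc07g049530.3), the most abundant of the list per length at breaker (2821 ± 86.1 FPKM), fell 2.53-fold, with 4748, 4463 and 4534 CPM in the breaker libraries and 1765, 1825 and 1839 CPM 7 days later (adjusted p = 2.60e-16). The later values of both genes lay well below all breaker values. All 5 tested ACO genes fell, with log2 fold changes from −3.84 to −0.32.

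Among 22 genes that sense ethylene or respond to it, 5 rose, 10 fell and 7 did not pass (median −0.09). ERF.E1 (Solyc09g075420.3, ERF2 in the reference gene table), an ethylene response factor, was the largest rise of the list, with 98.2, 94.2 and 93.4 CPM in the breaker libraries and 323, 316 and 327 CPM 7 days later (log2 fold change 1.76, SE 0.0459, adjusted p = 3.26e-15). The receptor gene ETR6 (Solyc09g089610.3) fell by 1.19 on the log2 scale, with 36.0, 39.4 and 36.8 CPM in the breaker libraries and 16.4, 15.5 and 17.35 CPM 7 days later (SE 0.0654, adjusted p = 5.89e-11). E4 (Solyc03g111720.3), a methionine sulfoxide reductase gene induced by ethylene, fell 2.15-fold, from 5374 ± 178 to 2505 ± 67.9 CPM (n = 3, adjusted p = 1.12e-12). Stages did not overlap for any of these genes. ETR1, EIN2 and EIL1, a receptor and downstream signalling components, did not pass and lay at log2 fold changes of 0.01, −0.03 and −0.04.

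**Figure D3:**
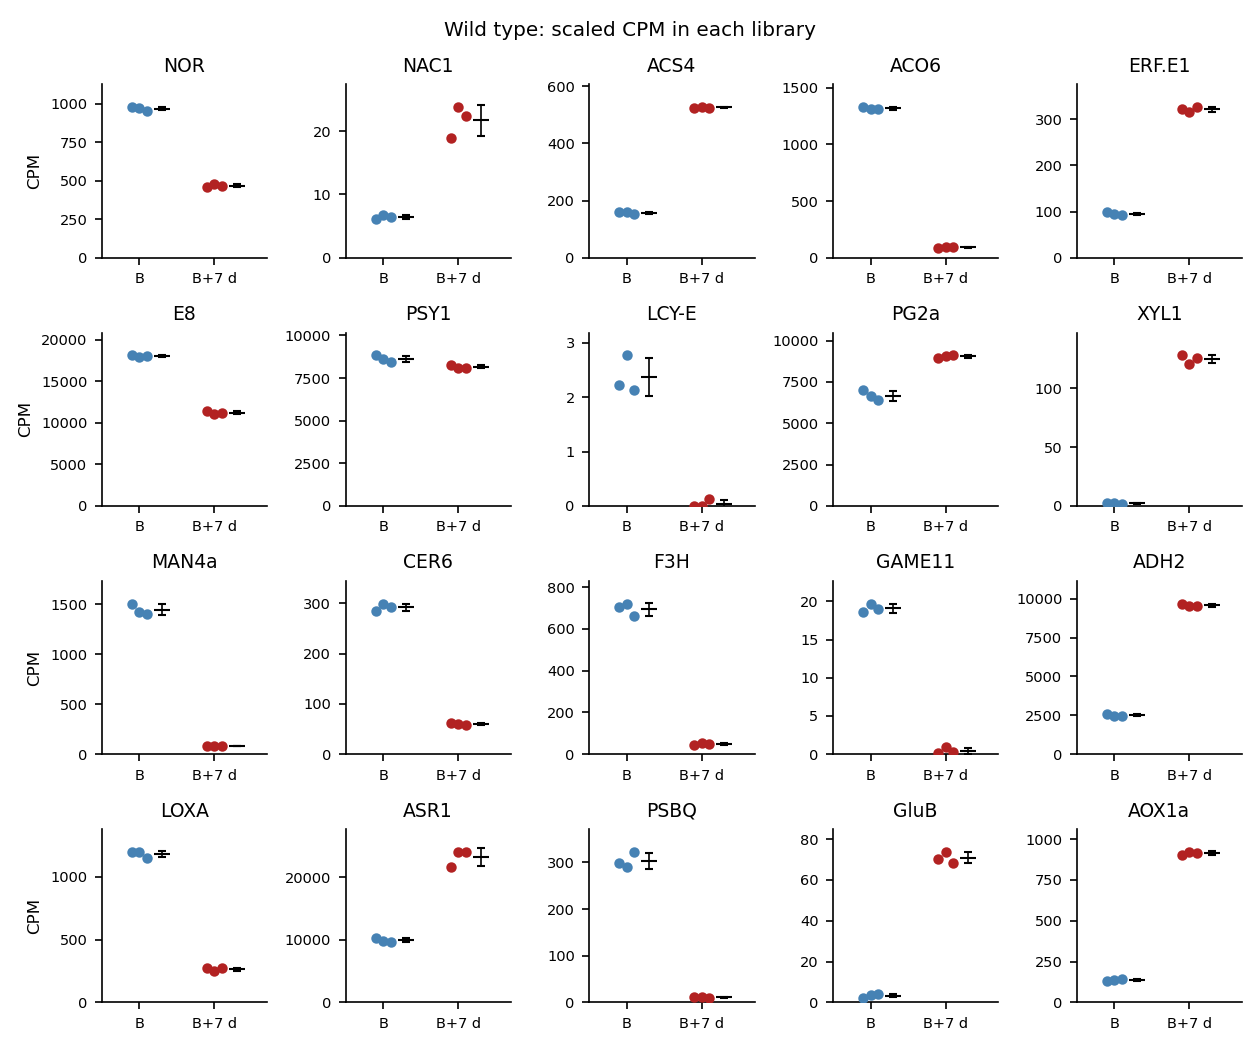
CPM in each of the 6 wild-type libraries for 20 named genes, 3 libraries at breaker (B, blue) and 3 at 7 days after breaker (B+7 d, red), with the mean ± SD (n = 3) as a black bar beside each group; every vertical axis starts at 0 and has its own scale. Replicates lie close together. The stages do not overlap in any of the 20 genes, but most were named by a rule that required this. They did not overlap in 69.4% of all tested genes.

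The pathway to lycopene, which colours ripe fruit red, held no called change of 2-fold or more. Of 11 genes 5 rose, 3 fell and 3 did not pass, and the median log2 fold change was 0.06. The count of falls was 1 without breaker replicate 1 and 1 without replicate 2 of the later stage. PSY1 (Solyc03g031860.3), the fruit phytoene synthase that starts the pathway, gave 8834, 8594 and 8453 CPM in the breaker libraries and 8279.7, 8100.2 and 8115 CPM 7 days later. The difference of −0.08 on the log2 scale (SE 0.0283, adjusted p = 0.021) lost the call without breaker replicate 1 (adjusted p = 0.0971), without replicate 2 of the later stage (0.0656) and without its replicate 3 (0.0661). Steps after phytoene were higher in some genes. ZISO (Solyc12g098710.2), the zeta-carotene isomerase, rose 1.46-fold, with 1432, 1408 and 1417 CPM in the breaker libraries and 2178, 2044 and 2002 CPM 7 days later (adjusted p = 1.28e-09), and ZDS (Solyc01g097810.3), the zeta-carotene desaturase, 1.68-fold, with 182, 183 and 171 CPM in the breaker libraries and 309, 293 and 298 CPM 7 days later (adjusted p = 1.19e-11). Ahead of phytoene, HDR (Solyc01g109300.3), the last enzyme of the plastid isoprenoid precursor pathway, rose 1.58-fold, from 541 ± 6.22 to 851 ± 5.45 CPM (n = 3, adjusted p = 8.87e-12).

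Genes of the steps after lycopene mostly fell: 8 of 12 were lower, 4 of these by at least 2-fold, 3 were higher and 1 did not pass (median −0.74). The list's summed level nonetheless rose, from between 636 and 647 CPM to between 823 and 838 CPM. LCY-E (Solyc12g008980.3), the epsilon-cyclase that leads to lutein, gave 2.23, 2.77 and 2.13 CPM in the breaker libraries and 0, 0 and 0.126 CPM 7 days later, a 50.9-fold fall at low counts (SE 0.58 on the log2 scale, adjusted p = 1.79e-07). CYC-B (Solyc06g074240.3), the chromoplast beta-cyclase, fell 2.09-fold, with 8.37, 9.69 and 10.2 CPM in the breaker libraries and 3.71, 4.54 and 5.22 CPM 7 days later (adjusted p = 6.68e-05). VDE (Solyc04g050930.3), the violaxanthin de-epoxidase of the xanthophyll cycle, fell 4.08-fold, from 41.8 ± 0.524 to 10.2 ± 1.01 CPM (n = 3, adjusted p = 4.93e-13). The cyclase and de-epoxidase values did not overlap between stages. CCD1B (Solyc01g087260.4), a dioxygenase that cleaves carotenoids into aroma compounds, rose by 0.55 on the log2 scale (SE 0.0275, adjusted p = 1.47e-11), and its near copy CCD1A fell by 0.71 (SE 0.0853, adjusted p = 1.28e-06). Reads shared by such copies could have been split between them.

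The cell wall list split in opposite directions, as did all tested genes (33.2% higher and 32.1% lower). Of 18 genes 8 rose, 9 fell and 1 did not pass, 2 and 7 of them by at least 2-fold (median −0.08). XYL1 (Solyc10g047030.3), an alpha-xylosidase that trims xyloglucan, gave 2.31, 2.3 and 1.79 CPM in the breaker libraries and 128, 121 and 126 CPM 7 days later. Its rise was 58.5-fold (log2 fold change 5.87, SE 0.15, adjusted p = 2.37e-15). MAN4a (Solyc01g008710.5.1), an endo-beta-mannanase that cuts mannans, made the opposite turn, with 1506, 1417 and 1405 CPM in the breaker libraries and 85.1, 84.6 and 85.9 CPM 7 days later, a 16.9-fold fall (SE 0.10 on the log2 scale, adjusted p = 2.08e-15).

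Pectin and glucan enzymes did not move as a block. PG2a (Solyc10g080210.2), the fruit polygalacturonase and the most abundant gene of the list per length (3709.8 ± 165 FPKM at breaker and 4988 ± 44.5 later), rose by 0.44 on the log2 scale, with 7000.1, 6629 and 6387 CPM in the breaker libraries and 8962, 9097 and 9111 CPM 7 days later (SE 0.0357, adjusted p = 9.38e-09). PL (Solyc03g111690.4), the pectate lyase whose loss firms fruit, rose to a like degree, by 0.45 (SE 0.0453, adjusted p = 1.41e-07). PME2.1, a pectin methylesterase, and TBG4, a beta-galactosidase, fell by 1.48 and 1.52 on the log2 scale (adjusted p = 2.42e-16 and 1.59e-14). The endoglucanase genes diverged: CEL1 (Solyc08g081620.4) fell 4.95-fold, with 43.7, 46.3 and 73.7 CPM in the breaker libraries and 10.7, 10.5 and 11.8 CPM 7 days later, and CEL2 rose 2.08-fold (adjusted p = 1.76e-09 and 2.58e-11). Breaker replicate 3 was the high library of CEL1, and the later libraries were all below the 3 breaker libraries. PG-beta (Solyc05g005170.4), the polygalacturonase beta subunit, did not pass, with 1.55, 2.01 and 1.85 CPM in the breaker libraries and 2.09, 1.82 and 1.5 CPM 7 days later (log2 fold change 0.00, adjusted p = 1), and its stages overlapped.

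Genes of the fruit surface fell together. In the cuticle list 8 of 9 genes fell, all by at least 2-fold, none rose and 1 did not pass (median −2.32). A checked name was held by 5 of the 9. CER6 (Solyc02g085870.3), the elongase of very-long-chain wax precursors, gave 285, 299 and 292 CPM in the breaker libraries and 61.1, 59.7 and 58.4 CPM 7 days later. This 4.89-fold fall (log2 SE 0.0389, adjusted p = 1.44e-17) left a wide gap between the stages. TTS1 (Solyc12g006530.2), a triterpenoid synthase of the cuticular wax, fell 13.3-fold, with 23.2, 25.0 and 24.4 CPM in the breaker libraries and 2.25, 1.78 and 1.45 CPM 7 days later (adjusted p = 3.78e-13). CD1 (Solyc11g006250.2), the cutin synthase, was low at breaker and fell 30.0-fold, with 0.783, 0.779 and 0.66 CPM in the breaker libraries and 0.0762, 0 and 0 CPM 7 days later (adjusted p = 4.36e-07). The list also marks the epidermis, and its summed level went from between 731 and 770.0 CPM to between 171 and 174 CPM. The part of epidermal content in this result and in that of the flavonoid genes was not tested.

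Flavonoid synthesis, which colours the tomato peel yellow with naringenin chalcone, fell as well: 11 of 13 genes were lower, 1 was higher and 1 did not pass, 9 of them by at least 2-fold (median −2.87). The list's share of all counts dropped from between 0.622% and 0.677% to between 0.115% and 0.121%. F3H (Solyc02g083860.3), the flavanone hydroxylase, gave 702, 721 and 659.5 CPM in the breaker libraries and 46.1, 53.0 and 47.8 CPM 7 days later, a 14.2-fold fall (log2 SE 0.0575, adjusted p = 4.08e-18). CHS1 (Solyc09g091510.3), the chalcone synthase that starts the pathway, fell 11.6-fold, with 983, 1033 and 968 CPM in the breaker libraries and 84.3, 86.3 and 86.5 CPM 7 days later (adjusted p = 1.18e-15). Their regulator MYB12 (Solyc01g079620.4) fell 10.3-fold, from 75.7 ± 5.17 to 7.33 ± 0.645 CPM (n = 3, adjusted p = 3.27e-15). In each of these genes all later libraries were below all breaker libraries. CHS2, a near copy of CHS1, fell by 2.29 on the log2 scale (SE 0.0753, adjusted p = 6.31e-14), with the same reservation on shared reads. Upstream, PAL5 (Solyc09g007910.4), a phenylalanine ammonia-lyase, fell 7.79-fold (adjusted p = 3.73e-18).

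Most genes of the steroidal glycoalkaloids, defence compounds of green fruit, fell. Of 11 tested genes 9 fell and 2 rose (median −3.48). The list's summed level was nonetheless higher later, at between 3966 and 3992 CPM against between 3445 and 3577 CPM at breaker. Both risers are abundant listed loci whose names were not checked, and they rose 1.32-fold and 3.42-fold, while another abundant locus, also unchecked, fell by 0.64 on the log2 scale. GAME11 (Solyc07g043420.3), a dioxygenase of the pathway, gave 18.6, 19.7 and 19.0 CPM in the breaker libraries and 0.152, 0.876 and 0.348 CPM 7 days later, a 40.4-fold fall (log2 SE 0.24, adjusted p = 3.91e-12). GAME18 (Solyc07g043500.1), a glycosyltransferase, fell 43.0-fold, with 3.73, 1.7 and 2.13 CPM in the breaker libraries and 0.0762, 0 and 0.0948 CPM 7 days later (adjusted p = 1.45e-07). GAME4 (Solyc12g006460.2), the P450 at the branch to alkaloids, had 80 counts at breaker and none later, at least 30.2-fold lower against the floor of 3 counts over the later group. The later libraries lay below all breaker libraries for each. GAME12 (Solyc12g006470.2), a transaminase, fell 14.4-fold, with 11.2, 13.8 and 9.58 CPM in the breaker libraries and 0.438, 1.07 and 0.853 CPM 7 days later (adjusted p = 3.02e-11). GAME7 (Solyc07g062520.3), a P450 named in the early pathway, fell less, by 0.53 on the log2 scale (SE 0.0756, adjusted p = 9.99e-06). Reads shared by similar GAME genes could have been split between them. Several of these genes are neighbours in the genome. Among tested genes, the longest run of neighbours that all fell at least 4-fold held 6 genes on chromosome 7, and 5 of the 6 are GAME11, GAME6, GAME17, GAME1 and GAME18. The log2 fold changes of the run lay between −5.43 and −3.36, with a median of −4.70 in wild type and −1.80 in slnor.

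The photosynthetic machinery fell widely. Of 26 photosynthesis genes 24 fell, 20 of them by at least 2-fold, 1 rose and 1 did not pass (median −3.0). A checked name was held by 13 of the 26. PSBQ (Solyc02g079950.3), an extrinsic subunit of photosystem II, gave 298, 290.0 and 323 CPM in the breaker libraries and 11.9, 11.8 and 8.63 CPM 7 days later, a 28.3-fold fall (log2 SE 0.0891, adjusted p = 3.81e-17). Cab-10A (Solyc01g105030.3), a chlorophyll a/b-binding protein, fell 15.6-fold, with 47.7, 44.2 and 42.9 CPM in the breaker libraries and 3.1, 2.64 and 2.91 CPM 7 days later (adjusted p = 5.93e-16). Cab-3C (Solyc03g005780.3), another such protein, fell 48.0-fold at low counts, with 1.57, 2.52 and 1.81 CPM in the breaker libraries and 0, 0.0487 and 0.0632 CPM 7 days later (adjusted p = 0.000154). There was no overlap between stages in the 3 genes. Members of the Cab family are near copies, and reads may have been split among them.

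Not all of the chloroplast genes followed. PSBR (Solyc07g066310.3), another photosystem II subunit, stood at 671, 618 and 642 CPM in the breaker libraries and 623, 606 and 605 CPM 7 days later (log2 fold change −0.07, SE 0.0362, adjusted p = 0.0806). Its fall did pass in 6 alternatives, at adjusted p values of 0.0163 to 0.0479: DESeq2, its size factors, library totals, wild-type libraries alone, the replicate block, and leaving out breaker replicate 2. The fitted fall was at most 0.10 on the log2 scale in these. PSBP rose by 0.18 on the log2 scale (SE 0.0467, adjusted p = 0.0028). The list also marks green tissue, and its summed level went from between 3486 and 3709 CPM to between 1862 and 1907 CPM; the part of green tissue content in the result was not tested. Among 7 listed genes of chlorophyll breakdown, 1 of them with a checked name, 5 fell, 1 rose and 1 did not pass (median −0.37). SGR1 (Solyc08g080090.3), the stay-green enzyme that takes magnesium from chlorophyll, did not pass, with 1150.5, 1116 and 1100.3 CPM in the breaker libraries and 1123, 1159.9 and 1122 CPM 7 days later (log2 fold change 0.02, SE 0.0574, adjusted p = 0.82), and its stages overlapped.

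Flavour volatile genes moved both ways: of 15, 5 rose, 7 fell and 3 did not pass (median −0.11). ADH2, described above, gave 2564, 2477 and 2464 CPM in the breaker libraries and 9687, 9540.0 and 9513 CPM 7 days later, a 3.83-fold rise (log2 SE 0.0282, adjusted p = 3.36e-18). LOXA and LOXC are lipoxygenases, which oxidise fatty acids on the way to volatiles. LOXA (Solyc08g014000.3) fell 4.49-fold, with 1196, 1199 and 1154 CPM in the breaker libraries and 271, 249.9 and 270.3 CPM 7 days later (adjusted p = 1.62e-15). LOXC (Solyc01g006540.4), the isoform that feeds the C6 volatiles, fell 3.0-fold, with 1315, 1379 and 1276 CPM in the breaker libraries and 440.1, 449 and 433 CPM 7 days later (adjusted p = 7.24e-10). PAR2 (Solyc01g008530.3), a phenylacetaldehyde reductase, fell 7.31-fold at low counts (adjusted p = 0.000426). AAT1, an alcohol acyltransferase that makes esters, rose by 0.23 on the log2 scale (SE 0.0469, adjusted p = 0.00034). The stages of these genes did not overlap.

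Sugar, starch and acid genes fell more often than they rose, with 13 of 20 lower, 4 higher and 3 not passing (median −0.51). Genes of starch synthesis were among the falls. GBSS1 (Solyc08g083320.4), the granule-bound starch synthase, fell 3.18-fold, with 94.7, 92.2 and 95.6 CPM in the breaker libraries and 29.4, 28.4 and 31.1 CPM 7 days later (adjusted p = 2.08e-15), and AGPL3 (Solyc01g079790.4), a large subunit of ADP-glucose pyrophosphorylase, fell 4.19-fold, with 4.17, 4.66 and 4.32 CPM in the breaker libraries and 1.24, 0.974 and 0.932 CPM 7 days later (adjusted p = 6.32e-08). GAD1 (Solyc03g098240.3), a glutamate decarboxylase that makes GABA, fell 2.46-fold, from 1078 ± 23.6 to 439 ± 5.24 CPM (n = 3, adjusted p = 8.79e-16). Stages were apart in each. TIV1 (Solyc03g083910.5), the vacuolar invertase that splits sucrose and the most abundant of the list per length, fell by 0.17 on the log2 scale, with 9403, 9673 and 9545 CPM in the breaker libraries and 8798, 8358 and 8239.6 CPM 7 days later (SE 0.0347, adjusted p = 0.000331). SUS3, a sucrose synthase, rose by 0.95 (SE 0.0402, adjusted p = 1.79e-12).

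Of 7 abscisic acid genes 3 rose, 3 fell and 1 did not pass (median 0.28). NCED1 (Solyc07g056570.1), the rate-limiting dioxygenase of abscisic acid synthesis, gave 431, 459 and 467 CPM in the breaker libraries and 186, 178 and 182 CPM 7 days later, a 2.49-fold fall (log2 SE 0.0626, adjusted p = 8.82e-12). CYP707A2, a hydroxylase that breaks the hormone down, rose by 0.75 (SE 0.0503, adjusted p = 7.96e-10). These genes of synthesis and breakdown moved in opposite directions, and NCED2, a relative of NCED1 at a low level, fell 1.91-fold (adjusted p = 7.25e-07). ASR3 (Solyc04g071590.3), a tandem copy of ASR1, was listed at 0, 0 and 0.151 CPM in the breaker libraries and 0.152, 0.681 and 1.14 CPM 7 days later, and its call (adjusted p = 0.0287) was lost in DESeq2 (0.166) and without any single library except breaker replicate 3 and later replicate 1 (0.0583 to 0.117).

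Auxin genes were mixed, with 11 of 27 higher, 10 lower and 6 not passing (median 0.02), where 33.2% of all tested genes rose and 32.1% fell. IAA3 (Solyc09g065850.4), a repressor of auxin response, rose 3.74-fold, with 73.7, 71.3 and 70.3 CPM in the breaker libraries and 263, 276 and 266 CPM 7 days later (log2 SE 0.0394, adjusted p = 1.60e-16). Its relative IAA27 (Solyc03g120500.4) fell 2.62-fold, with 13.8, 12.4 and 14.7 CPM in the breaker libraries and 5.03, 5.48 and 5.04 CPM 7 days later (adjusted p = 6.30e-09). The stages of both genes were apart.

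Among 8 gibberellin genes 3 rose, 4 fell and 1 did not pass (median −0.09). GA3ox1 (Solyc06g066820.4), which makes the active hormone, rose 9.36-fold from a low level, with 0.33, 0.362 and 0.396 CPM in the breaker libraries and 3.47, 3.36 and 3.43 CPM 7 days later (adjusted p = 2.36e-08). GA2ox2 (Solyc07g056670.3), which inactivates it, fell 2.69-fold, with 391, 392 and 382 CPM in the breaker libraries and 142, 147 and 144 CPM 7 days later (adjusted p = 3.48e-16). GA2ox5 (Solyc07g061730.3), of the same enzyme class, fell 9.02-fold at low counts, with 0.907, 0.489 and 1.11 CPM in the breaker libraries and 0.152, 0 and 0.126 CPM 7 days later (adjusted p = 0.000147). None of these genes overlapped between stages.

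Light signalling and clock genes were even, as were all tested genes (33.2% higher and 32.1% lower), with 10 of 22 higher, 9 lower and 3 not passing (median −0.05). HY5 (Solyc08g061130.3), the bZIP factor that promotes light responses, fell 3.84-fold, with 106, 105 and 99.2 CPM in the breaker libraries and 25.6, 27.2 and 28.1 CPM 7 days later (log2 SE 0.0683, adjusted p = 1.56e-13). DDB1 (Solyc02g021650.3) and COP1, parts of the ubiquitin machinery that represses light responses, rose by 0.72 and 0.81 on the log2 scale (adjusted p = 1.68e-11 and 7.10e-11). The phytochrome gene PHYE (Solyc02g071260.3) fell 2.87-fold (adjusted p = 5.13e-06), and PHYB1 fell by 0.74 on the log2 scale (adjusted p = 1.88e-10). Of 10 DNA methylation genes 6 rose, 2 fell and 2 did not pass (median 0.15). Both that fell are demethylases: DML2 (Solyc10g083630.2), which demethylates ripening gene promoters, gave 2157, 2312 and 2264 CPM in the breaker libraries and 1081, 1086 and 1134 CPM 7 days later, a 2.04-fold fall (adjusted p = 1.07e-14), and DML1 (Solyc09g009080.4) fell 2.64-fold, with 18.4, 20.3 and 21.3 CPM in the breaker libraries and 7.85, 7.3 and 7.6 CPM 7 days later (adjusted p = 2.15e-10). The maintenance methyltransferase gene MET1 rose by 0.55 on the log2 scale (SE 0.0565, adjusted p = 2.08e-07).

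Stress and defence genes stood at the rising end of the lists. Of 8 defence genes 6 rose, 4 by at least 2-fold, 1 fell and 1 did not pass (median 1.45), and the list's share of counts went from between 0.0299% and 0.0337% to between 0.148% and 0.157%. NP24 (Solyc08g080640.2), an osmotin-like protein, gave 248, 280.1 and 279 CPM in the breaker libraries and 1332, 1408 and 1328 CPM 7 days later, a 5.04-fold rise (log2 SE 0.0575, adjusted p = 1.52e-15). CHI9 (Solyc10g055810.2), a basic chitinase, rose 4.61-fold, with 12.6, 14.3 and 14.8 CPM in the breaker libraries and 58.5, 69.9 and 64.2 CPM 7 days later (adjusted p = 3.19e-09). GluB (Solyc01g060020.4), a basic beta-1,3-glucanase, rose 21.0-fold, with 2.35, 3.81 and 3.89 CPM in the breaker libraries and 70.4, 73.7 and 68.4 CPM 7 days later (adjusted p = 2.96e-13). Another listed locus on the same chromosome had nearly the same counts in every library, and reads may be shared between them. Both loci are counted among the 6 risers and the 4 of at least 2-fold, and both enter the median and the share. CHI17 (Solyc02g082930.3), another chitinase, fell 3.98-fold, with 31.1, 30.3 and 31.8 CPM in the breaker libraries and 7.56, 9.8 and 6.07 CPM 7 days later (adjusted p = 3.41e-10). Stages were apart in the 4 genes.

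Of 8 heat stress genes 5 rose, 2 fell and 1 did not pass (median 0.61). HSP21 (Solyc03g082420.3), a plastid small heat shock protein, rose 2.07-fold, with 542, 497 and 515 CPM in the breaker libraries and 1064, 1093 and 1065 CPM 7 days later (adjusted p = 4.67e-09). HSFA3 (Solyc09g009100.4), a heat stress transcription factor, rose 2.27-fold, with 22.0, 22.5 and 21.2 CPM in the breaker libraries and 48.0, 47.6 and 53.6 CPM 7 days later (adjusted p = 1.15e-11). The small heat shock protein gene listed as HSP17.7A (Solyc06g076520.1, HSP17.8 in the reference gene table) was the most abundant of the list per length and rose by 0.61 on the log2 scale (SE 0.0537, adjusted p = 2.53e-08). AOX1a (Solyc08g075540.5.1), the mitochondrial alternative oxidase that bypasses part of the respiratory chain, gave 129.8, 135 and 142 CPM in the breaker libraries and 901, 922 and 917 CPM 7 days later. Its 6.73-fold rise (log2 fold change 2.75, SE 0.0371, adjusted p = 1.37e-18) came with very little spread, and 2 of the 3 genes of alternative respiration rose. UCP, a mitochondrial uncoupling protein, fell by 0.12 on the log2 scale (adjusted p = 0.0452), a call that was lost without any single library other than breaker replicate 3.

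In ascorbate and antioxidant metabolism 7 of 12 genes rose and 5 fell (median 0.16). GMP3 (Solyc03g096730.3), which makes GDP-mannose at the head of ascorbate synthesis, fell 2.55-fold, with 71.0, 74.5 and 75.4 CPM in the breaker libraries and 27.9, 30.2 and 28.6 CPM 7 days later (adjusted p = 3.88e-13). CAT1 (Solyc12g094620.3), a catalase and the most abundant of the list per length at breaker, fell 1.8-fold, with 3871, 3837 and 3851 CPM in the breaker libraries and 2149, 2159 and 2129 CPM 7 days later (adjusted p = 3.08e-15). GGP1 and GGP2, GDP-galactose phosphorylases of the same pathway, rose by 0.48 and 0.71 on the log2 scale (adjusted p = 1.75e-08 and 7.09e-12). Of 7 polyamine genes 2 rose and 5 fell (median −0.21), and SAMDC1 (Solyc05g010420.2), the S-adenosylmethionine decarboxylase, fell 2.63-fold, with 3054, 3202 and 3115 CPM in the breaker libraries and 1209.8, 1175 and 1175 CPM 7 days later (adjusted p = 9.27e-16). The polyamine falls numbered 3 without breaker replicate 2, without breaker replicate 3 or without later replicate 1. ODC (Solyc04g082030.1), the ornithine decarboxylase, fell by 0.32 on the log2 scale (SE 0.12, adjusted p = 0.0243). Of 8 listed tocopherol genes, none with a checked name, 6 fell, 1 rose and 1 did not pass (median −0.56). Of 6 genes of cell division and size 3 fell (1 without later replicate 1), 1 rose and 2 did not pass (median −0.93). The cyclin-dependent kinase gene CDKA1 (Solyc08g066330.3) fell 3.21-fold, with 33.7, 28.5 and 29.6 CPM in the breaker libraries and 9.16, 10.1 and 9.29 CPM 7 days later (adjusted p = 6.91e-13). CCS52A, an activator of the cell cycle switch to endoreduplication, rose by 0.28 (adjusted p = 0.000129).

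Genes often used to normalise expression in fruit were not all steady. Of 11 tested 4 rose, 3 fell and 4 did not pass (median 0.02). The tubulin gene TUB (Solyc04g081490.3) gave 262, 268 and 256 CPM in the breaker libraries and 23.5, 24.8 and 26.4 CPM 7 days later, a 10.5-fold fall (log2 SE 0.0449, adjusted p = 1.11e-18). Its later libraries were all far below the breaker libraries. EF1A (Solyc06g005060.3), an elongation factor, rose by 0.11 on the log2 scale (adjusted p = 0.00505). CAC, a clathrin adaptor gene, fell by 0.24 and GAPDH, of glycolysis, by 0.22 (adjusted p = 0.000235 and 1.14e-05).

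Seed content was checked with markers. In 6 tested seed genes, 1 of them with a checked name, 1 rose, 2 fell and 3 did not pass (median 1.58). The summed level of the list went from between 71.9 and 79.7 CPM to between 17.2 and 26.3 CPM. The median lies above 0 while the sum falls: the most abundant member, an oleosin-type locus whose name was not checked, went from between 67.5 and 74.7 CPM to between 14.2 and 16.4 CPM. The single rise was lost without breaker replicate 1, breaker replicate 2 or later replicate 2, and became 2 without later replicate 3. The vicilin gene listed as SSP-a (Solyc09g082340.2), a seed storage protein, was uneven among the later libraries, with 1.55, 1.67 and 0.868 CPM in the breaker libraries and 2.69, 6.31 and 0.363 CPM 7 days later (adjusted p = 0.141, and 0.0117 without later replicate 3). For seed coat and locular tissue, AGL11 had no count in any wild-type library, TAG1 (Solyc02g071730.4) fell by 0.25 on the log2 scale (SE 0.0369, adjusted p = 1.72e-05) and MBP3 stood at −0.51 (adjusted p = 0.138). The part of seed content in the results above was not tested.

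Some genes were found at 1 stage only. With at least 1 CPM in all 3 libraries of a stage and no count in the 3 of the other, 26 genes were detected only 7 days after breaker and 14 only at breaker. The numbers hang on that level: they were 40 and 40 with at least 0.5 CPM and 4 and 3 with at least 5 CPM. Outside the lists no identifier was paired with a gene name here. Among those genes with at least 10 CPM at the higher stage, the largest rise belonged to Solyc08g066140.3, at 0 in all breaker libraries and at 0, 33.8 and 31.7 CPM later. Because replicate 1 of the later stage had no count, it did not separate the stages (adjusted p = 0.00871). The mean of the later libraries, though not replicate 1, was at least 1139.7-fold higher, against a floor of 3 counts over the breaker group. In slnor the mean of Solyc08g066140.3 was 17.1 CPM at breaker and 17.3 CPM later. Solyc12g150125.1 was at 0 in all breaker libraries and at 19.7, 22.4 and 19.2 CPM later, at least 1068-fold higher. Solyc01g105050.3 fell from 35.9, 32.0 and 32.5 CPM to 0, 0.292 and 0.126 CPM (adjusted p = 9.14e-14), and Solyc07g045080.3 from 13.5, 14.5 and 13.7 CPM to 0.0762, 0.114 and 0 CPM (adjusted p = 2.25e-10).

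The wild-type change was then set against that of slnor over the same days, in the same fit. NOR itself, the mutated gene, was counted at 821 CPM at breaker and 548 CPM later in slnor, and counts over a whole gene cannot check a mutation made by CRISPR. In slnor 52.2% of the tested genes changed, against 65.3% in wild type. Of all tested genes 26.2% rose and 26% fell in slnor, and 3792 genes rose and 3640 fell in both genotypes. The difference between the stage changes passed the test in 8474 genes (42.2%). Of the genes that had changed in wild type, 7358 also differed in this test. Among these, the change was more positive in wild type than in slnor for 3229 of the risers and more negative for 3485 of the fallers. Some of these went the opposite way in slnor. Another 372 risers and 272 fallers differed the other way. The genes were picked by their call in wild type, which favours larger wild-type changes, so no conclusion is drawn from this split. In 1057 genes the stage change was called in opposite directions in the genotypes and the difference passed.

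Several genes that fell in wild type fell less, or rose, in the mutant. For CER6 the slnor means went from 71.2 to 107 CPM, a log2 fold change of 0.59 against −2.29 in wild type (difference −2.87, SE 0.054, adjusted p = 2.67e-15). MYB12 went from 11.6 to 25.7 CPM in slnor, where wild type went from 75.7 ± 5.17 to 7.33 ± 0.645 CPM, and the difference was −4.51 (SE 0.12, adjusted p = 3.33e-14). MAN4a was at 57.5 CPM in slnor at breaker and 38.1 CPM later, against 1442 ± 55.1 and 85.2 ± 0.632 CPM in wild type (difference −3.48, adjusted p = 4.23e-12). NAC1 fell from 39.7 to 11.6 CPM in slnor while it rose in wild type (difference 3.53, SE 0.13, adjusted p = 1.06e-12).

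Among risers, AOX1a reached 208 CPM in slnor from 134 CPM, a log2 fold change of 0.63, and the difference from wild type was 2.12 (SE 0.0501, adjusted p = 6.80e-15). GluB stood at 7 days at 70.8 ± 2.7 CPM in wild type against 66.7 CPM for slnor, and at breaker at 3.35 ± 0.864 CPM against 44.3 CPM (difference 3.8, adjusted p = 2.14e-10). ADH2 rose in both, by 1.94 in wild type and 1.68 in slnor on the log2 scale, and the difference of 0.26 passed the test (adjusted p = 3.99e-05). For PSY1 and for PG2a the change was more positive in slnor, by 0.44 and 1.73 on the log2 scale (adjusted p = 1.30e-07 and 1.13e-13). The slnor level of PG2a remained below wild type at both stages, at 237 and 1063 CPM.

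**Figure D4:**
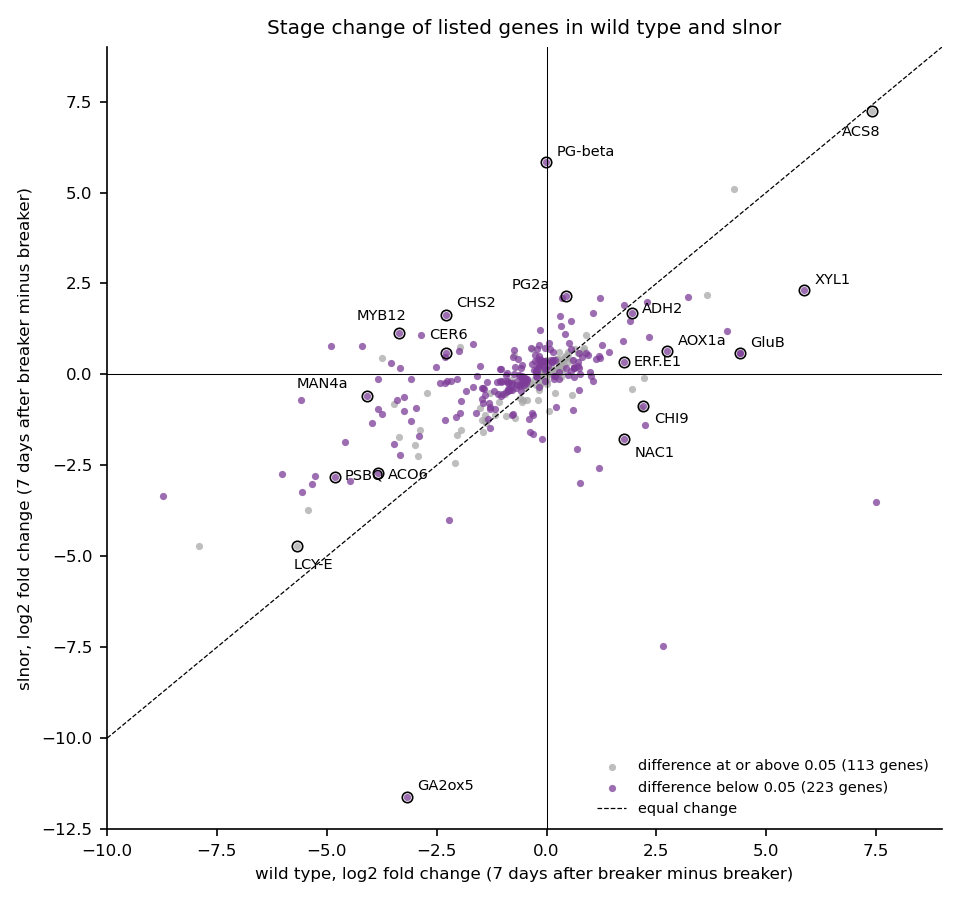
Stage change (log2 fold change, 7 days after breaker minus breaker) of the 336 tested listed genes in wild type, horizontal, and in slnor, vertical. Purple genes differ between genotypes at an adjusted p under 0.05 (223 genes), as did 42.2% of all tested genes. Grey genes do not pass (113), and the dashed line marks equal change. Circled genes are labelled; CER6, MYB12 and CHS2 fall in wild type and rise in slnor, and NAC1 and CHI9 rise in wild type and fall in slnor.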

How the data were processed

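Tomato fruit RNA was measured in 12 libraries, and the 6 wild-type libraries were compared by stage. The authors deposited whole-number counts per gene, unnormalised to judge by their differing library totals. The authors also deposited FPKM values (counts divided by library total and gene length); the unit is not named in the files and was inferred from the counts, and these values served only to compare levels between genes. Per the submitters' processing notes, which give no version or role, the tools were HISAT, UMI-tools, StringTie and edgeR. The sources used here do not state the genome build, annotation, library kit or strand setting, so reads of overlapping or antisense genes and near-identical copies may have been shared.

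Counts were fitted with edgeR 4.0.16 in R 4.3.3 (filterByExpr, TMM scaling, quasi-likelihood F test, Benjamini-Hochberg adjustment over 20070 of 34075 genes, which held 99.9883% of the counts), with all 12 libraries in 1 fit of 4 groups. Standard errors were obtained as the size of the log2 fold change over the root of F. DESeq2 1.42.0, other scalings, no filter, wild-type libraries alone, a replicate block and leaving out each library were the alternatives, and the fits were tested on simulated data. Replicates of a stage differed by more than counting noise (chi-square per degree of freedom of 5.26 to 7.57). The precision is set by the replicates of all 4 groups, with 3 libraries each, since the fit estimated their spread together. The biological coefficient of variation in slnor was 8.69% at breaker and 6.79% later.

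The libraries, gene lists and tests were chosen with earlier results of these data known. Of 371 listed genes, 361 were in the count table and 264 had a name checked by chromosome and order against a RefSeq gene table of the assembly SLM_r2.1, since the identifiers themselves are not in that table. From each list up to 3 checked members were named by the largest change (at least 2-fold, adjusted p under 0.05, stages apart), with the member of highest mean CPM and, added after values were seen, the one whose change differed most from slnor; outside the lists, 2 genes each way. Further genes, picked for their role in a pathway once their values had been seen, are ACS2, ETR1, EIN2, EIL1, ZDS, HDR, CCD1A, PL, PME2.1, TBG4, CEL2, CHS2, PAL5, PSBP, LOXC, AAT1, SUS3, CYP707A2, COP1, MET1, CHI17, UCP, GGP1, GGP2, CAC, GAPDH and MBP3. Some results named by this rule are not reported here.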

Additional observations from a re-analysis of the deposited data

Results flagged for a closer look

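The 7-day change differed between wild type and slnor in many listed genes. The 25 given here are 1 per list for 25 of the lists, the gene with a checked name and the largest such difference in its list. Each value is the wild-type log2 fold change minus that of slnor, and each passed edgeR's quasi-likelihood test of the difference at an adjusted p under 0.05, as did 42.2% of all tested genes.

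The wild-type change was the more positive for NAC1 (3.53) and ERF.E1 (1.42), which encode transcription factors, and for GluB (3.80), AOX1a (2.12) and HSP21 (1.23) of stress and respiration. The same held for ODC (1.32), the seed gene SSP-a (3.77), whose wild-type values were uneven, and GA2ox5 (8.44), which had no count in slnor at 7 days, so that its fitted value depends on the prior count.

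The wild-type change was the more negative for surface and pigment genes, with CD1 at −5.68, MYB12 at −4.51, VDE at −1.89 and ZISO at −0.91. In green tissue and starch it was −4.88 for Cab-3C and −1.33 for GBSS1. GAME12 of the glycoalkaloids stood at −2.89, LOXA of the volatiles at −1.97, ACO6 of ethylene synthesis at −1.13 and NCED2 of abscisic acid synthesis at −0.93. The remaining genes were GMP3 at −1.14, PHYB1 at −1.41, DML2 at −0.81, CDKA1 at −2.51, TUB at −2.68 and TAG1 at −0.34. PG-beta, at −5.84, had no count in slnor at breaker, and its fitted value depends on the prior count.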

How the results depend on the processing

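The counts of higher and lower genes and of differences from slnor stayed within 1.5 times of the reported values in each alternative run. Leaving out 1 wild-type library gave 6235 to 6398 higher genes and 6131 to 6185 lower genes. For the difference between the stage changes of wild type and slnor it gave 7893 to 8050 genes. With wild-type libraries only, 19045 genes were tested, 6421 higher and 6517 lower. Falls thus outnumbered rises there, as they did with DESeq2, its size factors and library totals. Over all tested genes the replicate numbers gave no sign of pairing. Same-numbered deviations correlated at −0.0167 to 0.0199, and the others at −0.021 to 0.0293. The fit with the replicate block gave 6580 higher, 6358 lower and 8244 different genes. The second principal component did set replicate 1 of each stage apart, and pairing in a part of the genes was not tested. The wild-type log2 fold change was followed for 72 listed genes named by largest change or highest mean CPM. Of 863 values, 847 kept their direction and side of the threshold, 8 lost a call (PSY1 and ASR3) and 7 gained one (PSBR and SSP-a). SGR1, not called, changed sign with wild-type libraries only (log2 fold change −0.0026, adjusted p = 0.934), and the cause was not tested. Genes named only for the difference from slnor, and the differences of single genes, were not part of this check. Of 672 list counts, 17 moved by more than 1.5 times, all in counts of 5 or fewer; 2 of these arose with the replicate block, which took the falls in alternative respiration and the rises in the seed list to 0. Genes found at 1 stage only numbered 40 at 7 days and 40 at breaker with at least 0.5 CPM, and 4 and 3 with at least 5 CPM, as the threshold sets. The 100 most abundant genes held 25.6% of summed FPKM at breaker and 26.1% later, since FPKM divides by length. The difference from slnor could not be fitted with wild-type libraries only. Differences of genes under 1 CPM are limited by depth.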

Other observations

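Some neighbouring genes moved together. Over all tested genes, 613 rose and 1463 fell at least 4-fold. Among tested genes in genome order, 17 runs of 3 or more neighbours all rose at least 4-fold and 26 such runs fell. How many runs would arise for other gene orders was not tested. Runs of 5 rising genes lay on chromosomes 2, 4, 6 and 12, and a run of 5 falling genes on chromosome 10, none of them holding a listed gene. The run on chromosome 10 fell by log2 fold changes of −7.42 to −3.88. In the rising runs on chromosomes 2, 6 and 12 some genes had no count at breaker, so their fitted changes depend on the prior count and are not given. Neighbours can be copies of each other that share reads, and their part in these runs was not tested.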
